A study of Homo sapiens with 9 samples.

Results

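Glutathione transferases were followed in ZR-75-1, a breast cancer cell line that carries the estrogen receptor, after a mimic of miR-150-5p had been introduced. The 10 genes considered were GSTM1, GSTM2, GSTM3, GSTM4, GSTM5, GSTP1, GSTK1, GSTO1, GSTZ1 and GSTT2, and 9 of them had a probeset named in the platform's annotation, out of 14884 named genes tested. GSTZ1 had no named probeset and was not analysed here. Each of the 9 was read from 1 probeset, its only named one, so the stated choice of the probeset with the highest mean over the 9 arrays decided nothing. The members were chosen by family name, and the family was selected on the log2 values of these mimic, negative control and mock arrays, with the difference of GSTM1 in mimic cells already known. The members' differences and adjusted p-values below therefore describe the fit over all genes and are not independent evidence for the family.

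The 9 Affymetrix Human Gene 2.0 ST arrays formed 3 groups of 3. Mimic cells received 50 nM of mature miR-150-5p, negative control cells 50 nM of a non-specific RNA, and mock cells no RNA. All 3 groups were exposed to the lipid reagent Lipofectamine RNAiMAX, had their medium replaced at 24 h and were harvested at 48 h. The cells were transfected in triplicate, with no word on separate experiments, so p-values here reflect only how far the 3 samples of a group scattered, which may be technical scatter. Values are log2 intensities, on which a difference of 1 is a doubling, and they do not tell fewer transcripts per cell from fewer cells that hold them.

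Glutathione transferases join the thiol of glutathione to electrophilic compounds, which makes many drugs, carcinogens and products of lipid oxidation more soluble and easier to export. The cytosolic enzymes fall into classes, among them alpha (GSTA), mu (GSTM), pi (GSTP), omega (GSTO), zeta (GSTZ) and theta (GSTT). The kappa enzyme GSTK1 is found in mitochondria and peroxisomes. Mu-class genes lie side by side and resemble each other closely, and in breast tumours GSTP1 is known as a gene whose promoter is often methylated and silent in estrogen receptor-positive cells. Several transferase genes are induced by the oxidative stress factor NRF2 through the antioxidant response element.

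The RefSeq gene table (GRCh38.p14) placed the 5 mu genes in a row on chromosome 1, in the order GSTM4, GSTM2, GSTM1, GSTM5 and GSTM3, with 0 other genes between them. Of the other measured members, GSTK1 lies on chromosome 7, GSTO1 on chromosome 10, GSTP1 on chromosome 11 and GSTT2 on chromosome 22, where RefSeq lists GSTT2 as a transcribed pseudogene. Promoter windows of 300 bases, from 250 before to 50 after the annotated start, were available for 9 of the 10 members, all but GSTT2. The windows of GSTM1 (chr1:109687567-109687866), GSTM5 (chr1:109712001-109712300), GSTM2 (chr1:109667807-109668106) and GSTP1 (chr11:67583562-67583861), all on the plus strand, are shown to let the mu-class neighbours be set side by side with the pi-class gene. Capitals mark matches to the core of the antioxidant response element, TGACNNNGC, searched on both strands.
GSTM1: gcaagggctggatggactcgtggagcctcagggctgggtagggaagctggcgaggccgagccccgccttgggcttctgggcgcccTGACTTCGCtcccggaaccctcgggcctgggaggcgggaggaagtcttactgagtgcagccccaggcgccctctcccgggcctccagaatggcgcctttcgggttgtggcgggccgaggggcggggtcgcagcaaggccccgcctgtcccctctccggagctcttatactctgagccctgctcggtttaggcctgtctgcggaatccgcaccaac
GSTM5: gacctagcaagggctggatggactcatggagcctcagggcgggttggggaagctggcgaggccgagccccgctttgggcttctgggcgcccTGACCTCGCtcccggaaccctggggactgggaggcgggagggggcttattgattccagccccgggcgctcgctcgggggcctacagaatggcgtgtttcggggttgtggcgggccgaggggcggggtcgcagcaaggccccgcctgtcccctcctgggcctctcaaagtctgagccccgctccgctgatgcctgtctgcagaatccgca
GSTM2: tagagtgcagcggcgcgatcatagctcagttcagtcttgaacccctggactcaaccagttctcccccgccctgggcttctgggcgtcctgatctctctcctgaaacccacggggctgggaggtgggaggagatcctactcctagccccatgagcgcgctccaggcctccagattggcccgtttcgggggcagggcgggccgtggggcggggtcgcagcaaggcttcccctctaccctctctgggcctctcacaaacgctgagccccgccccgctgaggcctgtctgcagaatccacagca
GSTP1: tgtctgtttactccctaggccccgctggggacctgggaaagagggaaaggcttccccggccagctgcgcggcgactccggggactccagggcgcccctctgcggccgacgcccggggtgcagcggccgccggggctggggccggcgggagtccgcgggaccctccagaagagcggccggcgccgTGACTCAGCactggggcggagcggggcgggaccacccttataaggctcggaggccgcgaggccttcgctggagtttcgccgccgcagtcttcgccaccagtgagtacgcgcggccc

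The GSTM1 and GSTM5 windows were the most alike of the mu class, with 260 identical bases over 296 aligned columns (87.8%). GSTM1 and GSTM2 shared 211 of 304 (69.4%), and GSTM2 and GSTM5 shared 210 of 300 (70.0%). The other pairs of mu windows aligned over fewer than 250 columns and have no identity given. The element core was found in 4 of the 9 member windows, those of GSTM1, GSTM5, GSTP1 and GSTO1, while 13.3% of all 35116 promoter windows held it. As the GSTM1 and GSTM5 windows were 87.8% identical, the 4 are not independent, and the shares were not tested against each other. GSTM1 carried TGACTTCGC from 165 to 157 bases before its start and GSTM5 carried TGACCTCGC from 159 to 151 bases before its own. In GSTP1 the match TGACTCAGC stood from 66 to 58 bases before the start, and GSTO1 held a pair of matches, TGACTGAGC and TGACACAGC. A match describes letters in the window and does not show that a factor binds there.

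Setting the mimic against an equal dose of control RNA asks what sets miR-150-5p apart from transfected RNA in general. GSTM1, a mu-class enzyme that conjugates epoxides and other electrophiles and whose gene many people lack, stood highest in all 3 mimic arrays. Whether the genome of ZR-75-1 cells holds GSTM1 was not examined here. Its log2 intensity was 5.73, 5.26 and 5.40 in mimic replicates 1, 2 and 3, against 4.68, 4.74 and 4.83 in the negative control arrays and 4.88, 4.74 and 4.63 in the mock arrays. No mimic array overlapped with any of the 6 control arrays, and the group means were 5.46 ± 0.24 (SD, n = 3) in mimic, 4.75 ± 0.08 in negative control and 4.75 ± 0.13 in mock cells. GSTM1 rose by 0.71 ± 0.12 (SE) against the negative control, a 1.63-fold difference with a 95% interval from 1.36 to 1.97, and limma's adjusted p was 0.0401. Against mock the difference was 0.71 ± 0.12, or 1.64-fold, and the adjusted p of 0.0540 missed the threshold of 0.05. Between the negative control and mock it was 0.00 ± 0.12, with an interval from -0.27 to 0.27 (adjusted p = 1).

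Of the 9 members, GSTM1 was the 1 that passed against the negative control, 0 passed against mock and 0 passed between the controls. Over all genes 0.551% passed against the negative control, 0.302% against mock and 0% between the controls, where limma gave 622 genes and 0 members an unadjusted p under 0.05. Arrays without overlap were found against the negative control for 3 members (GSTM1, GSTM2 and GSTT2), with 16.4% of all genes doing so. Against mock they were found for GSTM1 alone, beside 12.7% of all genes, and between negative control and mock for 0 members, beside 8.10%. The median log2 change of the 9 members was 0.08 against the negative control, 0.05 against mock and -0.02 between negative control and mock, where the medians over all 14884 genes were each 0.01.

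**Figure D1:**
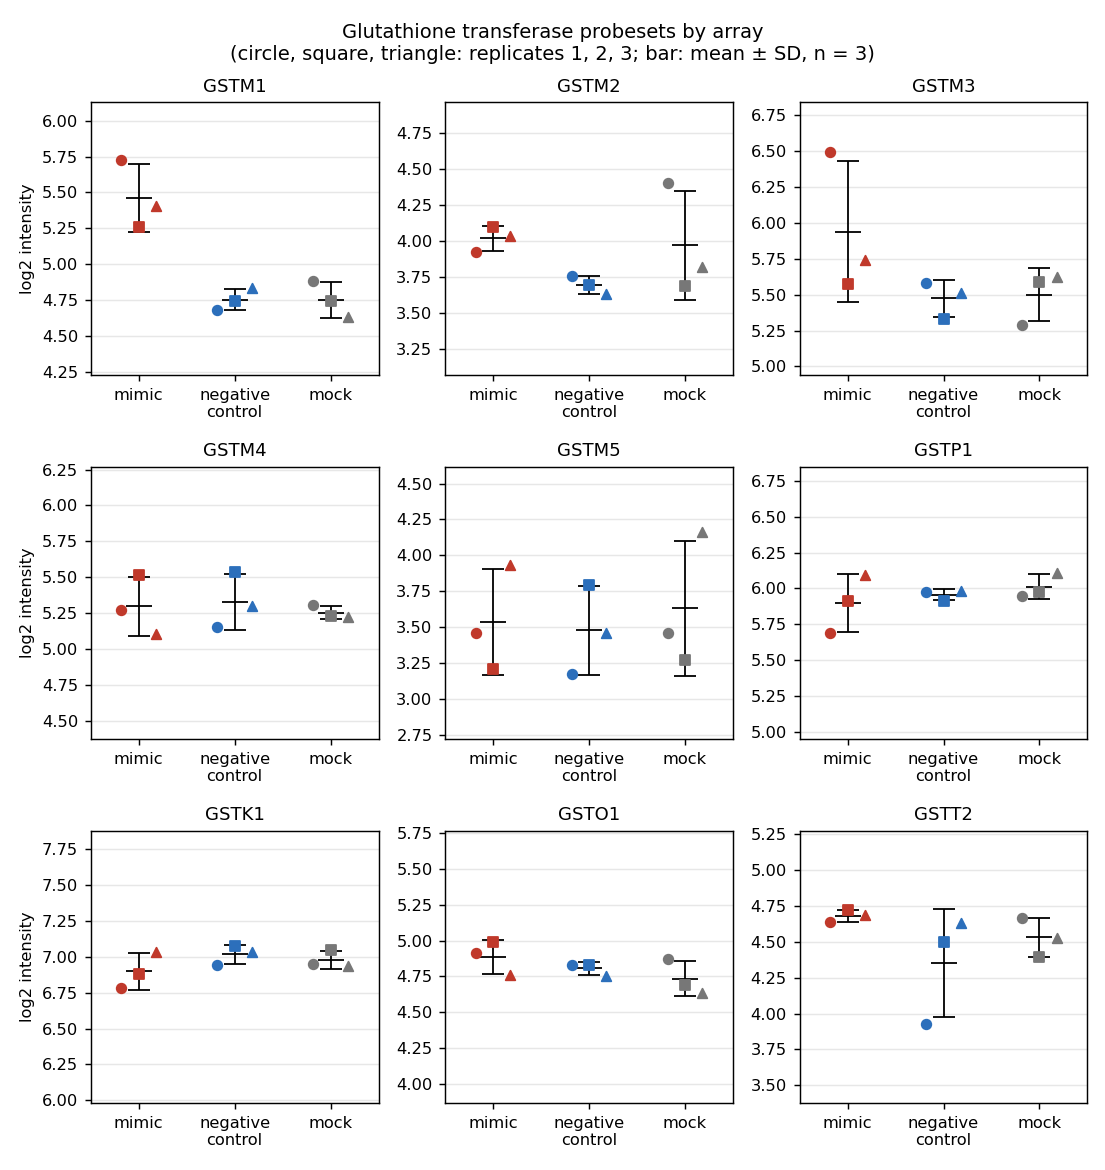
Log2 intensity of the 9 measured members (vertical axis, all panels of equal height in log2 units) on the 3 mimic, 3 negative control and 3 mock arrays, with each array as a point, replicates 1, 2 and 3 as circle, square and triangle, and the group mean ± SD as a bar. The 3 GSTM1 points of the mimic, from 5.26 to 5.73, lie above all 6 control points, while the other members overlap with at least 1 control group.

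The call on GSTM1 depended on single arrays and on the fit. It passed against the negative control in 5 of the 16 alternatives that tested it, with adjusted p between 0.0244 and 0.160, and its log2 change stayed between 0.58 and 0.81. Taking the mean of all probesets of a gene, an alternative among the 16, could not change GSTM1's own values, as it has 1 named probeset. Leaving out any 1 mimic array gave adjusted p of 0.0680, 0.0592 and 0.0811 for replicates 1, 2 and 3, and leaving out negative control replicate 1, 2 or 3 gave 0.149, 0.134 and 0.136. Without mock replicate 1 or 2 the adjusted p was 0.0642 and 0.0837, and without mock replicate 3 it was 0.0439. With the replicate number as a block the difference of 0.71 did not pass (adjusted p = 0.0617). Against mock, 1 of 16 alternatives passed. The probeset's mean of 4.99 lay below the median of the gene means, 5.44, and the table holds no detection call. Of 4 endothelial markers 3 were measured, PECAM1, VWF and KDR, with means from 2.84 to 3.54, and 0 of them lay above the median of the gene means. Their summed log2 level was 9.84 to 10.8 in mimic arrays, 9.54 to 9.69 in negative control arrays and 9.28 to 9.51 in mock arrays. The sum was highest in the mimic arrays and lowest in the mock arrays. PECAM1 carried most of the mimic difference, at 0.47 ± 0.17 against the negative control (adjusted p = 0.301) and 0.59 ± 0.17 against mock (adjusted p = 0.232), while VWF was at 0.03 and 0.01 and KDR at 0.03 and 0.14, and 0 of the 3 passed. The summed log2 level of the 7 measured luminal markers also stood apart, at 68.35 to 68.75 in mimic, 67.66 to 68.07 in negative control and 67.73 to 68.30 in mock arrays. ESR1 had the largest change of the 7, at 0.46 ± 0.07 against the negative control and 0.45 ± 0.07 against mock. The others ran from -0.09 (KRT19) to 0.16 (FOXA1) against the negative control, and from -0.07 (KRT18) to 0.14 (FOXA1) against mock. The part of these markers in the GSTM1 result was not tested.

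**Figure D2:**
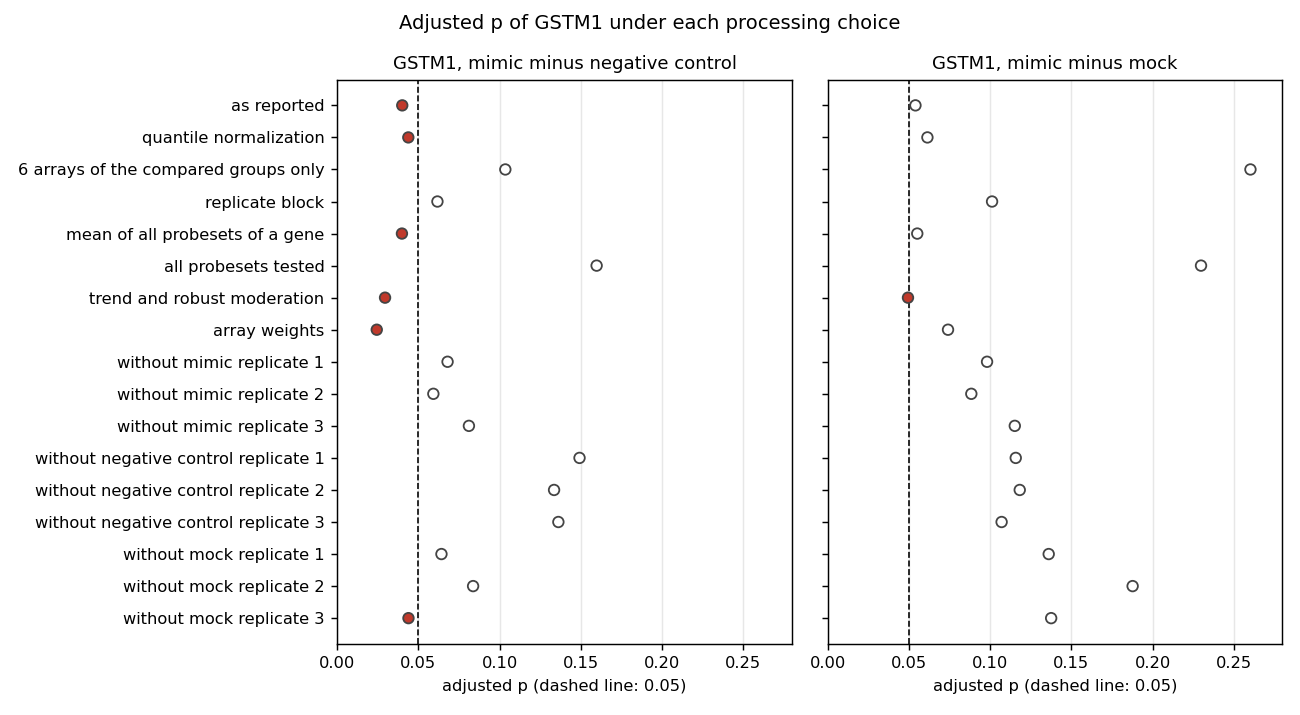
Adjusted p of GSTM1 (horizontal axis) in the reported fit and in 16 alternatives (rows), for mimic against negative control on the left and mimic against mock on the right; filled points are under 0.05. Against the negative control the values run from 0.0244 to 0.160, with the reported 0.0401 and 5 alternatives left of the dashed line, and against mock 1 alternative lies left of it.

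GSTM3, a mu-class enzyme known from brain and testis, was high on 1 mimic array. Its values were 6.50, 5.57 and 5.75 in mimic replicates 1, 2 and 3, against 5.58, 5.33 and 5.51 in negative control and 5.29, 5.59 and 5.63 in mock arrays. Mimic replicate 2 lay within the range of the controls. The log2 change was 0.46 ± 0.21 against the negative control (adjusted p = 0.405) and 0.44 ± 0.21 against mock (adjusted p = 0.505), and neither passed. Without mimic replicate 1 it was 0.18 against the negative control and 0.16 against mock.

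GSTM2, the mu-class enzyme of muscle, did not follow one order against both controls. Its values were 3.92, 4.10 and 4.04 in mimic arrays, against 3.76, 3.70 and 3.63 in negative control and 4.40, 3.69 and 3.82 in mock arrays. The mimic arrays lay above all negative control arrays, and mock replicate 1 lay above every mimic array. The change was 0.33 ± 0.16 against the negative control (adjusted p = 0.437) and 0.05 ± 0.16 against mock (adjusted p = 0.929). Without mock replicate 1 the change against mock was 0.27, and its sign turned to -0.091 without mock replicate 2 and to -0.027 without mock replicate 3.

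GSTM4 and GSTM5, the remaining mu-class members, gave intervals on both sides of 0. GSTM4 ranged from 5.11 to 5.51 in mimic, from 5.15 to 5.54 in negative control and from 5.22 to 5.31 in mock arrays, with changes of -0.03 ± 0.12 against the negative control and 0.04 ± 0.12 against mock. GSTM5 ranged from 3.21 to 3.93 in mimic, from 3.17 to 3.80 in negative control and from 3.27 to 4.16 in mock arrays. Its changes were 0.06 ± 0.26 against the negative control, with a 95% interval from -0.52 to 0.64, and -0.10 ± 0.26 against mock. The GSTM5 interval overlaps that of GSTM1 against the negative control, 0.44 to 0.98, and the difference between these genes was not tested. The adjusted p of these 4 changes lay between 0.913 and 0.951. Transcripts of the mu class are similar enough that a probe for one may bind another; the probe sequences were not used here, so how far the 5 probesets read separate transcripts was not tested.

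GSTP1, the pi-class enzyme and the transferase best known from drug resistance, was 5.69, 5.91 and 6.09 in mimic arrays, against 5.98, 5.91 and 5.98 in negative control and 5.95, 5.98 and 6.11 in mock arrays. The groups overlapped, and mimic replicate 1 was the lowest of the 9. The change was -0.06 ± 0.10 against the negative control (adjusted p = 0.852) with an interval from -0.29 to 0.17, and -0.11 ± 0.10 against mock (adjusted p = 0.726). Without mimic replicate 1 the change against the negative control was 0.05.

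GSTK1, the kappa-class enzyme, was 6.78, 6.88 and 7.04 in mimic arrays, against 6.94, 7.07 and 7.03 in negative control and 6.95, 7.05 and 6.93 in mock arrays. The group means were 6.90 in mimic, 7.02 in negative control and 6.98 in mock cells, with overlap between each pair. Its change was -0.12 ± 0.08 against the negative control (adjusted p = 0.598) and -0.08 ± 0.08 against mock (adjusted p = 0.769). GSTO1, an omega-class enzyme with thioltransferase activity, ranged from 4.76 to 4.99 in mimic, from 4.76 to 4.83 in negative control and from 4.64 to 4.87 in mock arrays. Its change was 0.08 ± 0.09 against the negative control (adjusted p = 0.746) and 0.15 ± 0.09 against mock (adjusted p = 0.568).

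GSTT2, of the theta class, was 4.64, 4.72 and 4.68 in mimic arrays, against 3.92, 4.50 and 4.63 in negative control and 4.67, 4.40 and 4.53 in mock arrays. The lowest mimic value stood just above the highest negative control value, and 1 low array, negative control replicate 1, set most of the distance. The change was 0.33 ± 0.16 against the negative control (adjusted p = 0.439) and 0.12 without that array, and it was 0.15 ± 0.16 against mock (adjusted p = 0.774). GSTT2B, the near-identical neighbouring copy, averaged 5.47 in mimic and 5.47 in negative control cells, with a change of -0.00 ± 0.07. Whether the probesets of these copies read separate transcripts was not tested.

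**Figure D3:**
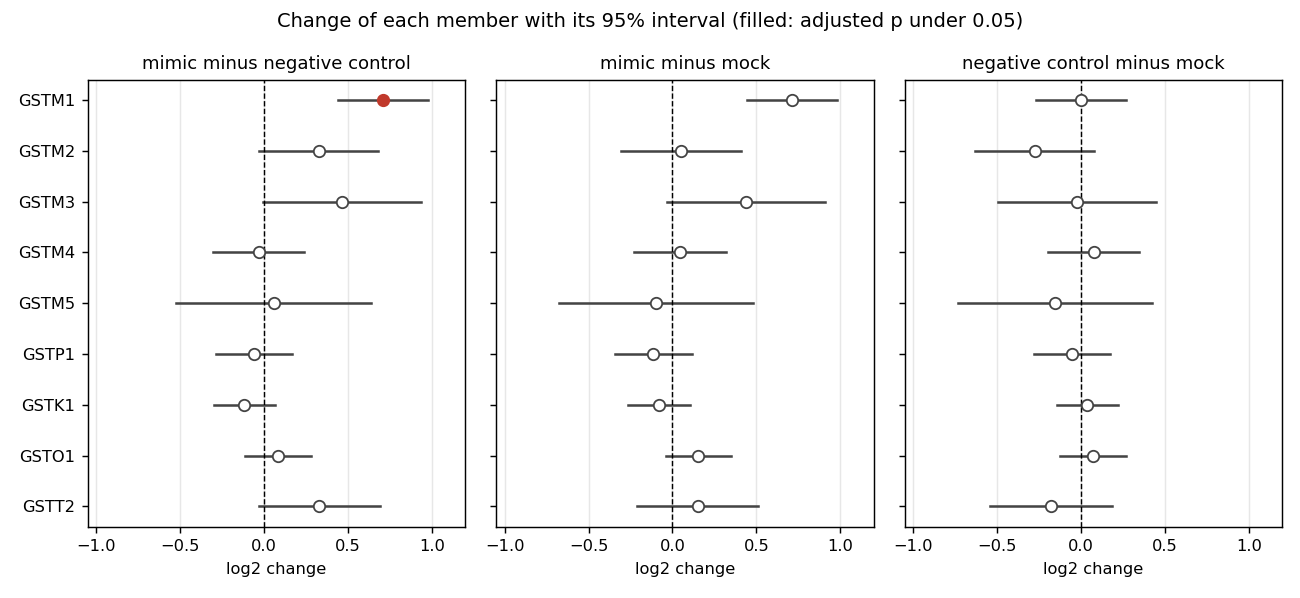
Log2 change (horizontal axis) of the 9 members with its 95% interval from limma, for mimic minus negative control, mimic minus mock and negative control minus mock; a filled point has an adjusted p under 0.05. GSTM1 is the filled point at 0.71 in the left panel, and in the right panel the intervals of all 9 members hold 0.

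Neither comparison of the mimic is independent of the other, since both use the same 3 mimic arrays, and the comparison of controls shares its arrays with both. Side by side, 6 members had a positive change against the negative control and 6 against mock, beside 53.4% and 53.8% of all genes. GSTM4 and GSTM5 had opposite signs in those comparisons. Of the 9 members, 3 (GSTM3, GSTP1 and GSTK1) had a mean above the median of the gene means, and the other 6 lay below it.

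The other genes of glutathione chemistry were taken in lists. Of 15 measured genes of 16 listed in the set of other transferases and membrane-bound relatives (the MAPEG family), 0 rose and 0 fell against the negative control, with 6 positive changes and a median of -0.01. The lowest p was that of GSTA4, an alpha-class enzyme that conjugates hydroxynonenal, which was -0.52 ± 0.15 against the negative control (adjusted p = 0.195) and -0.37 ± 0.15 against mock (adjusted p = 0.434). Of the 15 changes against the negative control, 9 were negative. MGST2 was at -0.46 ± 0.15 (adjusted p = 0.254), GSTO2 at -0.31 ± 0.12 (adjusted p = 0.359) and MGST3 at -0.26 ± 0.11 (adjusted p = 0.368). Against mock the changes of MGST2, GSTO2 and MGST3 were -0.17, -0.20 and 0.07. The difference from the negative control was 0.01 ± 0.08 for GSTT1, the theta-class relative. It was -0.01 ± 0.07 for MGST1, a microsomal transferase that averaged only 2.31 in mimic cells. Against mock 0 of the 15 passed, with a median of -0.01.

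Glutathione synthesis and recycling held the 1 listed gene outside the members that passed. GSR, glutathione reductase, which returns oxidised glutathione to its reduced form, was 9.73, 9.74 and 9.68 in mimic arrays, against 10.24, 10.30 and 10.16 in negative control and 10.23, 10.10 and 10.34 in mock arrays. All 3 mimic arrays lay below all 6 control arrays. GSR fell by 0.52 ± 0.08 (SE) against the negative control, a 1.43-fold difference (adjusted p = 0.0313), and by 0.51 ± 0.08 against mock (adjusted p = 0.0406), while the controls differed by 0.01 ± 0.08. Its call held in 7 of 17 alternatives against the negative control and in 5 of 17 against mock, with changes between -0.55 and -0.48 and between -0.57 and -0.45. Leaving out any array of the mimic or the negative control ended the first call (adjusted p from 0.0729 to 0.119), as did leaving out mock replicate 1 (0.0642), and leaving out any of the 9 arrays ended the second (0.0765 to 0.177). With the replicate number as a block neither passed (adjusted p = 0.0685 against the negative control and 0.118 against mock).

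The other 4 measured genes of that list of 10 did not pass in the reported fit. CTH, which makes cysteine and is named here after its values were seen, was 2.91, 3.90 and 4.19 in mimic arrays, against 4.77, 4.78 and 4.91 in negative control and 4.31, 4.36 and 4.52 in mock arrays. The mimic arrays lay below both control groups and spread more widely than either, with a change of -1.16 ± 0.26 against the negative control (adjusted p = 0.0963) and -0.73 ± 0.26 against mock (adjusted p = 0.367). CTH is dim: its means of 3.67 in mimic, 4.82 in negative control and 4.39 in mock cells lay below 5.44, the median of the gene means. The negative control was itself 0.43 ± 0.26 above mock (adjusted p = 0.976). With array weights CTH passed against the negative control (-1.06, adjusted p = 0.0283), the 1 of 16 alternatives in which it did. GSS, glutathione synthetase, was at -0.18 ± 0.08 against the negative control (adjusted p = 0.368). The list's median was -0.18 against each control, beside 0.01 over all genes.

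Among 20 measured peroxidases and thiol redox genes of 21 listed, 0 passed in either mimic comparison, and 13 had a negative change against the negative control and 10 against mock (medians -0.07 and -0.00). In negative control cells 18 of the 20 were higher than in mock cells, with a median of 0.05. Over all genes 53.4% had a positive change against the negative control, and 52.8% between negative control and mock. SRXN1, sulfiredoxin, had the lowest p against the negative control (-0.18 ± 0.06, adjusted p = 0.301). Of 8 measured genes of glutathione breakdown and the mercapturate pathway, out of 14 listed, 0 passed, with GGCT, gamma-glutamylcyclotransferase, at -0.21 ± 0.08 (adjusted p = 0.335) and medians of 0.01 against the negative control and -0.03 against mock. Of 10 measured NRF2 pathway genes out of 21, 0 passed, with medians of -0.09 and -0.02. Between negative control and mock the median was 0.10, with 8 of the 10 higher in the negative control. Listed genes that were not measured included NQO1, AKR1C1, FTL, FTH1 and ME1. NFE2L1, a relative of NRF2 that drives proteasome genes, had the lowest p of the 10 measured (-0.33 ± 0.07 against the negative control, adjusted p = 0.0780). Against mock NFE2L1 was at -0.20 ± 0.07 (adjusted p = 0.338) and passed in 0 of 17 alternatives. It was 0.12 ± 0.07 higher in negative control than in mock cells. Against the negative control it passed in 2 of 17 alternatives, without dim genes (adjusted p = 0.0258) and with trend and robust moderation (0.0290). NFE2L2, which encodes NRF2 itself, was at 0.00 ± 0.09. Of 3 measured phase II conjugation enzymes out of 12, 0 passed (NAT1, an arylamine acetyltransferase, -0.10 ± 0.10, adjusted p = 0.738), with medians of -0.10 against the negative control and -0.01 against mock. The 7 transporters listed for conjugate export had 0 measured members.

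**Figure D4:**
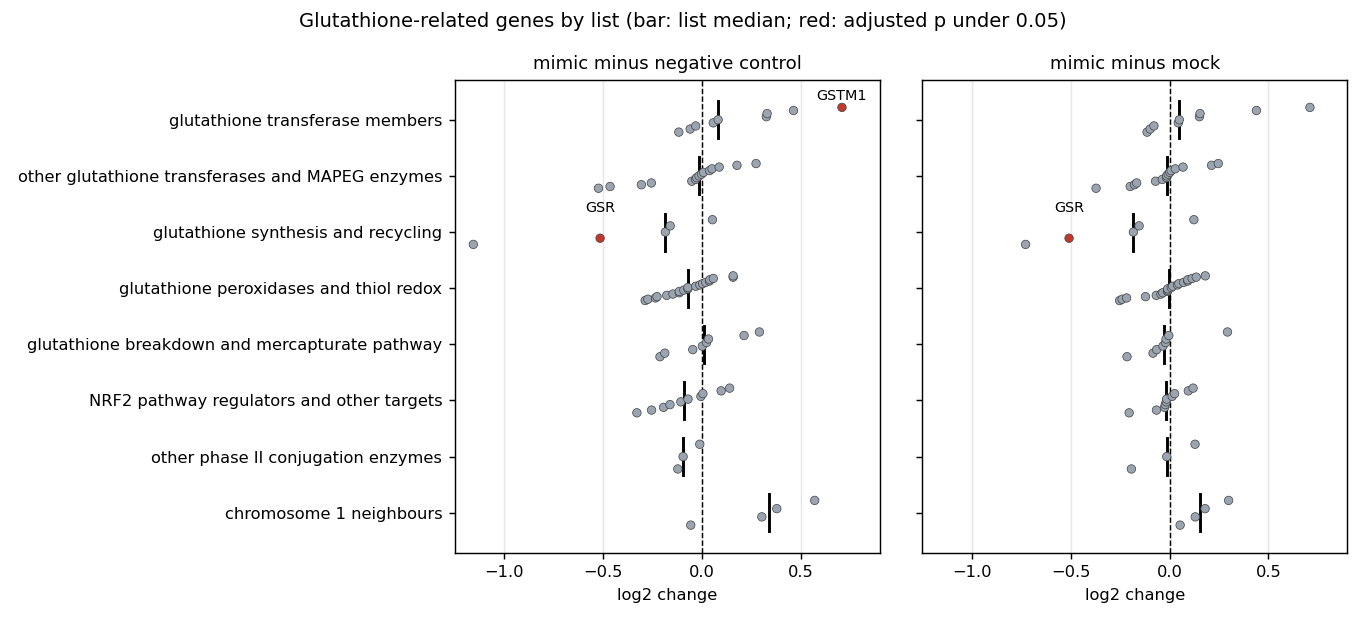
Log2 change (horizontal axis) of each measured gene of the 9 members and of 7 related lists (rows), for mimic minus negative control on the left and mimic minus mock on the right; bars are list medians and red points have an adjusted p under 0.05. GSTM1 (0.71, left panel) and GSR (-0.52 left, -0.51 right) are the red points, and the 3 highest of the chromosome 1 neighbours on the left are AMPD2, MIR197 and EPS8L3.

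The genes whose course over the 9 arrays was closest to that of GSTM1 were sought among 7442 genes with a mean above the median. Likeness was the root mean square difference between log2 values centred on each gene's own mean, a measure on which 0 is identity. GSTM1's own root mean square deviation was 0.36. INSL4, an insulin-like peptide, was closest (0.089), followed by SUSD3 (0.110), EDN1, the precursor of endothelin-1 (0.116), ANKRD52 (0.126) and OPN3, an opsin (0.132). INSL4 averaged 8.84 ± 0.13 in mimic, 8.22 ± 0.08 in negative control and 8.15 ± 0.20 in mock cells (SD, n = 3). Among the family GSTM3 was the closest member (0.236) and GSTM5 the farthest (0.501). These likenesses rest on the same arrays and groups and are a description.

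The median log2 intensity of an array was 4.22 to 4.27. Mimic replicates 1 and 3 and mock replicate 3 received the lowest array weights from limma (0.544, 0.530 and 0.555). Of 8 luminal epithelial markers 7 were measured, and all 7, ESR1, GATA3, FOXA1, EPCAM and 3 keratins, had means from 6.95 to 12.1. ESR1, the estrogen receptor, was the 1 marker that passed, higher by 0.46 ± 0.07 against the negative control (adjusted p = 0.0295) and by 0.45 ± 0.07 against mock (adjusted p = 0.0406). The 2 measured basal markers were at 2.67 (KRT5) and 4.52 (KRT14), FBN1 of the fibroblast list was at 3.75, and LYZ and CD68 of the leukocyte list were at 3.18 and 6.42.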

How the data were processed

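RNA of 9 samples, labelled with a FlashTag biotin kit per the labels' protocols, was hybridised to 1 array each; that kit is usually used for miRNA arrays, so how the RNA measured here was labelled is uncertain. The deposited table holds log2 intensities of 53617 probesets; the authors made them with RMA, a method that subtracts background, aligns the arrays' distributions and merges probes, per the submitters' processing notes, and for its version the sources used here give nothing. Probesets were named through GEO's platform annotation, which gave 16098 of them 1 symbol, 0 several and left 37519 unnamed. Gene IDs of all 16098 matched RefSeq. The probeset with the highest mean stood for each of 14884 genes.

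Values were fitted as deposited with limma 3.58.1 in R 4.3.3 (lmFit, eBayes), 1 mean per group over all 9 arrays with 6 residual degrees of freedom. P-values are two-sided, with Benjamini-Hochberg adjustment over 14884 genes and a threshold of 0.05; SE is limma's moderated standard error. Exact permutation of 3 arrays against 3 cannot go below 0.1 and was not used. The script was tested on simulated data. Precision is limited by the number of arrays, and the table has no detection call.

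Members, gene lists, likeness rule and alternatives were chosen with earlier results of these data known. All members are named; from each list the genes that passed are named, or the one with the lowest p against the negative control, and other genes are named as background or examples. Lists are described by counts and medians without a set test. Promoter windows came from RefSeq (GRCh38.p14) and were aligned globally with free end gaps in Biopython 1.88. Protein sequences and the sequence of miR-150-5p were not used here.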

Additional observations from a re-analysis of the deposited data

How the results depend on the processing

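In 17 alternatives the count of members called against the negative control fell to 0, against 1 as reported, when dim genes were left out (GSTM1 is then not tested), with the 6 arrays of the compared groups only, with the replicate block, and when all probesets were tested; leaving out 1 array gave 0 to 1. The GSTM1 difference was 0.71 in each of the 3 of these fits that tested it, with adjusted p = 0.104 (6 arrays), 0.0617 (replicate block) and 0.160 (all probesets). Leaving out 1 array gave GSTM1 changes from 0.58 to 0.81. Against mock GSTM1 passed with trend and robust moderation (0.71, adjusted p = 0.0494), which made the count 1, and in the other 16 alternatives 0 members passed. Its near-zero difference between negative control and mock turned to -0.026 with array weights and ran from -0.059 to 0.067 without 1 array.

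Signs of small changes that did not pass also turned. With array weights, GSTM4 was 0.035 and GSTM5 -0.14 against the negative control, GSTM2 -0.0084 against mock, and GSTM3 0.011 and GSTM5 0.0072 between negative control and mock. Leaving out 1 array gave, against the negative control, ranges of -0.14 to 0.073 for GSTM4, -0.14 to 0.22 for GSTM5, -0.16 to 0.046 for GSTP1 and -0.19 to 0.0074 for NAT1. Against mock they were -0.091 to 0.27 for GSTM2, -0.064 to 0.14 for GSTM4, -0.30 to 0.17 for GSTM5, -0.13 to 0.0016 for GGCT and -0.11 to 0.089 for NAT1. Between negative control and mock they were -0.13 to 0.048 for GSTM3, -0.028 to 0.16 for GSTM4, -0.34 to 0.11 for GSTM5 and -0.32 to 0.036 for GSTT2. Over all genes, the count against the negative control was 82 as reported, 263 without dim genes, 169 with trend and robust moderation, 268 with array weights, 8 on 6 arrays, 16 with the replicate block, 6 over all probesets, and 7 to 121 without 1 array. Against mock it was 45 as reported, and 102, 66, 57, 1, 3 and 3 in the same order, and 1 to 10 without 1 array.

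Same-numbered samples of different groups deviated together weakly: the correlation of their deviations from the group means was over 0.1 in 2 of 9 pairs (range -0.06 to 0.13). Pairs with different numbers ran from -0.18 to 0.16. These correlations do not settle whether the numbers mark a pairing, so the block was kept as an alternative. With the replicate block GSR also lost its calls, making the count of the synthesis and recycling list 0 in both comparisons, and of the genes most like GSTM1 INSL4 (adjusted p = 0.0726 against the negative control and 0.101 against mock) and OPN3 (0.0543 against the negative control) lost theirs; no other call on a member or listed gene changed. Calls were also gained against the negative control: CTH with array weights made the synthesis and recycling count 2, and NFE2L1 made the NRF2 count 1 without dim genes and with trend and robust moderation.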

Other observations

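Genes beside the mu-class cluster were examined as well. Of 10 genes within 5 places of the cluster on chromosome 1, 4 were measured, and 0 passed against the negative control or mock. AMPD2, an AMP deaminase, averaged 6.75 in mimic, 6.18 in negative control and 6.45 in mock cells, with a change of 0.57 ± 0.17 (SE, adjusted p = 0.196 by limma) against the negative control and 0.30 ± 0.17 (adjusted p = 0.561) against mock. MIR197, a microRNA gene, was 0.38 ± 0.09 higher against the negative control (adjusted p = 0.112) and 0.18 ± 0.09 against mock (adjusted p = 0.525). The difference from the negative control was 0.30 ± 0.12 for EPS8L3 and -0.06 ± 0.08 for CSF1. The list's median was 0.34 against the negative control and 0.16 against mock, where all genes had 0.01. Between negative control and mock the list's median was -0.19, with 3 of the 4 genes lower in the negative control.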
